A study of Mus musculus with 12 samples.

Results

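Simple keratins and epithelial genes were followed across tumour line cells of a mouse single-cell RNA-seq series: Krt7, Krt8, Krt18, Krt19, Epcam, Cdh1, Cldn9, Wfdc2 and Sprr1a. These 9 of the 32285 genes in the count matrices were selected on their levels in these same cells, by line and by day. Their levels and differences are therefore a description, with no test. The study profiled mouse tumours that were dissociated, labelled with hashtag antibodies, sorted for live cells and sequenced with the 10x Genomics 5′ kit. Its lines carry the name SCC35, which the labels do not expand, and the series title names melanoma rejection. The control group held lines 15 and 18, labelled Mif KO control, and the other group held lines 19 and 24, labelled Mif KO. Mif encodes macrophage migration inhibitory factor, a cytokine. Each line had a library of its own with days 0, 6, 10 and 16 (the labels do not say what the days are counted from, nor what material day 0 is), and 2 mixed libraries held further hashtags of days 6 to 16. The first mixed library held lines 15 and 19 at all 3 days and line 18 at day 16. The second held line 24 and cells marked WT at all 3 days and line 18 at days 6 and 10. The WT hashtags have no group in the labels and entered no comparison. No label says that hashtags of a line and day came from separate animals, so p-values measure only the spread between hashtags, which may be technical. Each group rests on 2 lines.

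Keratins are intermediate filament proteins. In simple epithelia type II keratins such as Krt7 and Krt8 polymerise with type I partners such as Krt18 and Krt19, whereas Krt5 and Krt14 form the filaments of basal keratinocytes. Epithelial cells are held together by E-cadherin (Cdh1) and claudins and carry the adhesion molecule Epcam, while mesenchymal cells make vimentin (Vim) filaments.

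The type II genes Krt7 (chr15:101412403-101427806) and Krt8 (chr15:101996711-102004342) and the type I gene Krt18 (chr15:102028216-102032026) lie in a single keratin cluster of RefSeq GRCm38.p6, which is mm10. Krt8 and Krt18 are 23.9 kb apart and are read away from each other, Krt8 on the minus and Krt18 on the plus strand. Krt19 (chr11:100140810-100145926), Epcam (chr17:87635979-87651127), Cdh1 (chr8:106603350-106670247), Cldn9 (chr17:23682584-23684026), Wfdc2 (chr2:164562715-164568510) and Sprr1a (chr3:92483954-92485881) lie elsewhere. RefSeq start sites were found for 6 of the 9 members, namely Krt7, Krt8, Krt18, Epcam, Wfdc2 and Sprr1a. Below are the 250 bases before the start of Krt8, Krt18 and Wfdc2, which were high together in line 19, and of Sprr1a, which was not. Cldn9 was high there too, but no start site was found for it. They are written 5′ to 3′ along the gene, with capitals where a motif matched on either strand.
Krt8, chr15:102004343-102004592, minus strand: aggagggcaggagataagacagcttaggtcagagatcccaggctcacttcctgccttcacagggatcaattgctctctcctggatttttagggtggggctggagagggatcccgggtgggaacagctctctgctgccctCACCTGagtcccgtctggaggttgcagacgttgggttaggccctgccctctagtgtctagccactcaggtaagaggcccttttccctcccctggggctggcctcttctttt
Krt18, chr15:102027966-102028215, plus strand: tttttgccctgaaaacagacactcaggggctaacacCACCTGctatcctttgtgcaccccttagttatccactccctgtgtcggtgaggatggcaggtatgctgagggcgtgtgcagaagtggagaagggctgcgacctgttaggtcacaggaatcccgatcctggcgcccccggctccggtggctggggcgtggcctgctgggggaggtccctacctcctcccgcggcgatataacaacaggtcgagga
Wfdc2, chr2:164562465-164562714, plus strand: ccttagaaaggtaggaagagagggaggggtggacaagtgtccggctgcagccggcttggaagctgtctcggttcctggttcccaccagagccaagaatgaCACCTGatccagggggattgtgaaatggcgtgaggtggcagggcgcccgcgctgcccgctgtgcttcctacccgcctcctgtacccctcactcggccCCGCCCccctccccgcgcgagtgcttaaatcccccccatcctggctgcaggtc
Sprr1a, chr3:92485882-92486131, minus strand: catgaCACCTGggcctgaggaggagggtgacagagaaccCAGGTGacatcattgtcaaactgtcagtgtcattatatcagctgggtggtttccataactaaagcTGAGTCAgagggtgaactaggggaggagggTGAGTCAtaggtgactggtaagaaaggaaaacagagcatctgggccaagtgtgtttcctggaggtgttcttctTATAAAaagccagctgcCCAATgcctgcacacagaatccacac
The motifs searched were the TATA box TATAAA, the GC box GGGCGG, the CCAAT box CCAAT, the AP-1 motif TGANTCA, the E-box CACCTG and the GRHL motif AACCGGTT. Among 32851 RefSeq promoters of the same length they were present in 12.4%, 32.7%, 33.8%, 6.75%, 17.2% and 0.116%. Matches overlapped in 0 cases among the 6 members. The E-box, the kind bound by Zeb and Snail repressors, was present in all 6, at 111 bases before the start in Krt8, at 214 in Krt18 and at 150 in Wfdc2. Sprr1a differed in its letters: it held E-boxes at 245 and 211 bases, AP-1 motifs at 146 and 116, a TATA box at 43 and a CCAAT box at 26. Krt8 and Krt18 held no match other than the E-box, and Wfdc2 held a GC box at 53 bases. None of these matches is a measured binding site.

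The matrices held 176381 barcodes in 6 libraries, with 163866 cells after filtering and 100557 that carried 1 hashtag. Line cells were the 64786 cells of 11 clusters with little Ptprc and without a Krt5 UMI (unique molecular identifier, a counted transcript). They came from 45 of 47 hashtags, with 220 to 3269 cells and 1886484 to 26100048 UMIs per hashtag. Values are raw UMIs summed per hashtag and given as CPM, the UMIs of a gene scaled to all UMIs of that hashtag. Pairs of libraries shared 3.41% to 4.83% of the smaller library's barcodes. Mif was at 1790 to 3113 CPM in the 21 control hashtags and at 42.5 to 717 CPM in the 21 Mif KO hashtags, so every Mif KO hashtag lay below every control hashtag. In both KO lines Mif was higher in the mixed libraries, at 246 ± 16.7 CPM (SD, n = 3) against 51.4 ± 3.65 (n = 6) in line 19 and at 712 ± 8.14 (n = 3) against 412 ± 41.2 (n = 5) in line 24. In control lines it was lower in the mixed libraries, at 2013 ± 227 (n = 3) against 2491 ± 189 CPM (n = 6) in line 15. Of the melanocytic markers Tyr had 0 UMIs, Dct, Mlana, Pmel and Tyrp1 averaged at most 0.182 CPM in any line, Sox10 at most 2.13 and Mitf at most 15.5 CPM. Summed RNA cannot tell fewer cells with a transcript from less of it in each cell.

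The epithelial label was met by some members only. Epcam and Cdh1, surface proteins that define epithelial cells, were near 0, so the cells are called by line rather than as epithelial: over all 45 hashtags the highest Epcam level was 0.209 CPM and the highest Cdh1 level 0.457 CPM. Krt19 reached at most 0.469 CPM and Krt7 at most 1.14 CPM. Line cells held 20 Epcam UMIs, 21 Cdh1 UMIs, 18 Krt19 UMIs and 67 Krt7 UMIs in all 58389 cells of the 4 lines. Vim, in contrast, lay between 3585 and 19279 CPM in these lines. The keratinocytes of the same tumours served as a reference: 85 cells with at least 3 Krt5 and 5 Krt14 UMIs, from 28 hashtags, with a median of 4210 UMIs. Pooled, they held Epcam at 714 CPM (exact 95% Poisson interval 637 to 799) and Cdh1 at 57.8 CPM (37.4 to 85.3). Krt8 was at 41.6 CPM (24.7 to 65.8) and Krt18 at 125 CPM (93.8 to 163) there, while Krt7, Krt19 and Cldn9 had 0 UMIs, which allows up to 6.94 CPM (3 counts). Vim stood at 3198 CPM (3031 to 3371) in the same 85 cells. Under a looser Krt5 and Krt14 gate it was at 5457, 5143, 3390 and 653 CPM in lines 15, 18, 19 and 24. The pooled Krt18 level joins lines too: it was 204 CPM (139 to 290) in the 24 keratinocytes of line 19 and 99.8 CPM (43.1 to 197) in the 21 of line 18. The part of free RNA from line cells in the Krt18 and Vim levels was not tested. These intervals and limits cover counting error only.

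**Figure D1:**
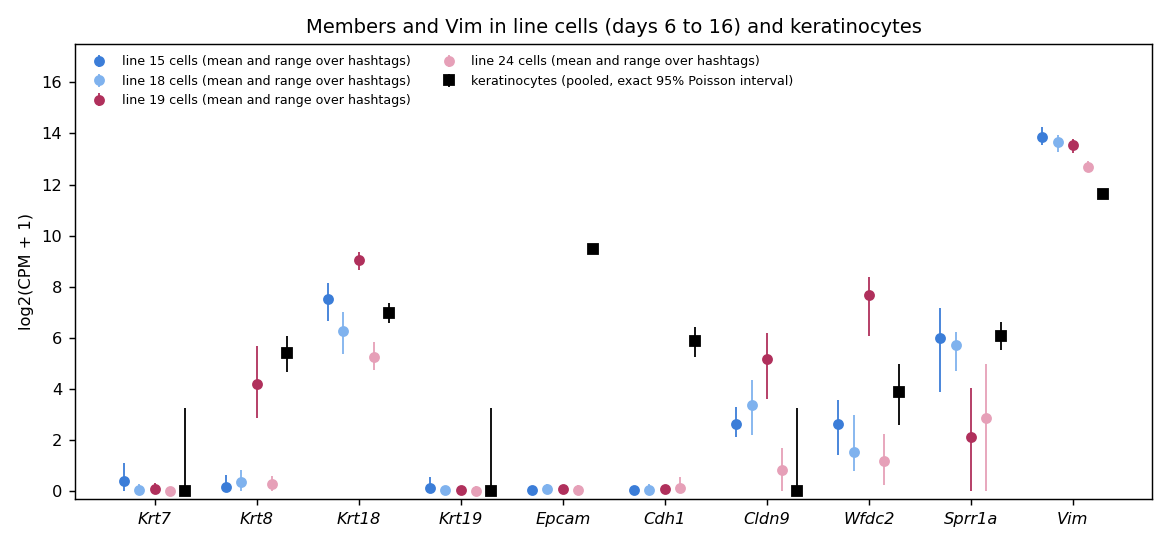
Level of each member and of Vim as log2(CPM + 1). Circles give the mean and range over the hashtags of each line at days 6 to 16, and squares give 85 pooled keratinocytes with exact 95% Poisson intervals. Epcam (714 CPM) and Cdh1 (57.8 CPM) stand high in keratinocytes and near 0 in all 4 lines, whereas Krt18 and Wfdc2 are highest in line 19.

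Krt18, the type I keratin of simple epithelia, was the most widely detected member. In line 19 it was at 261 and 317 CPM at day 0, at 497, 641 and 653 CPM at day 6, at 512, 590 and 606 CPM at day 10, and at 406, 411 and 440 CPM at day 16. In line 15 it was at 108 and 128 CPM at day 0, and over days 6 to 16 its lowest, median and highest values were 99.97, 157 and 284 CPM (n = 9). All 9 line 19 hashtags of days 6 to 16 lay above every hashtag of the other lines. Line 18 had 30.4 CPM in its only hashtag of day 0 and 40.1, 76.1 and 128 CPM as lowest, median and highest later (n = 9). Line 24 had 32.1 and 34.9 CPM at day 0 and 26.1, 35.1 and 56.5 CPM later (n = 8). WT hashtags were at 215, 135 and 84.7 CPM on days 6, 10 and 16. The order of means over days 6 to 16 was thus line 19, line 15, WT, line 18 and line 24, at 528 ± 97.4 (SD), 182 ± 77.0, 145 ± 65.5, 75.8 ± 29.2 and 37.0 ± 10.9 CPM. Each neighbouring pair below line 19 overlapped in range over these days.

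In every line the mean of Krt18 was highest at day 6 and lowest at day 16 of the 3 later days. Mean Krt18 was 597, 569 and 419 CPM on days 6, 10 and 16 in line 19 and 278, 161 and 107 CPM in line 15. It was 107, 65.3 and 54.7 CPM in line 18 and 52.9, 33.7 and 29.8 CPM in line 24. By day 16, line 15 was within or below its day 0 values and line 19 still above them. Within a day the control and KO lines did not interleave: at days 6, 10 and 16 every line 19 hashtag was above, and every line 24 hashtag below, all control hashtags. The same held between cells of a single mixed library, where line 19 had 497, 512 and 411 CPM on days 6, 10 and 16 and line 15 had 281, 157 and 110 CPM. How many of all genes split lines or groups in this way, here and for the members below, was not counted.

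Krt18 was also the member with the broadest spread over cells. After each cell was thinned to 1000 UMIs, 32.9% of line 19 cells held a Krt18 UMI (exact 95% binomial interval 32.3 to 33.6). The shares in lines 15, 18 and 24 were 13.5%, 6.27% and 3.13%. Unthinned shares were 78.0%, 55.1%, 26.0% and 14.2% in lines 19, 15, 18 and 24, at median depths of 9062, 9672, 5711 and 5124 UMIs. T-cell-like cells, which should lack keratins, served as the reference for background. Free RNA and doublets within a hashtag were not told apart in them. Thinned alike, 3.76% of line 19 T-cell-like cells held a Krt18 UMI (6.22% unthinned, median 1447 UMIs) against 0.853% of those of line 24 (0.995% unthinned, median 1286). In each of the 4 lines the thinned line-cell share lay above that of its own T-cell-like cells, which was 2.86% in line 15 and 2.10% in line 18. Line-cell shares per line, here and for Wfdc2 and Sprr1a below, pool all days with day 0. The T-cell-like cells came from 9 hashtags of each line, so the days were not matched.

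Krt8, the type II partner of Krt18, was close to 0 in every line but line 19. There it was at 0.405 and 0.532 CPM at day 0. It was at 6.27, 7.50 and 15.5 CPM at day 6, at 9.77, 17.7 and 49.95 CPM at day 10, and at 9.09, 15.5 and 24.8 CPM at day 16. The highest value in any other line or WT hashtag was 1.18 CPM, so the 9 later line 19 hashtags stood clear of the rest, and its 2 day 0 hashtags did not. Lines 15, 18 and 24 had 10, 34 and 11 Krt8 UMIs in all against 3051 in line 19. Of the Krt8 and Krt18 UMIs together, Krt8 made up 3.11% in line 19 (exact 95% binomial interval 2.999 to 3.217, for counting error only). This pools unlike hashtags: the share was 0.189% at day 0 (8 Krt8 UMIs), 0.969% to 3.40% in the 6 later hashtags of the single-line library and 1.49% to 8.89% in the 3 of the mixed library. That share was 0.0487% in line 15 (0.0233 to 0.0895), although Krt18 in line 15 was above that of lines 18 and 24 on average. The share was 0.366% in line 18 and 0.469% in line 24, so the 2 partner keratins were not in a fixed ratio across lines.

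Within line 19 Krt8 was held by few cells. Of 17483 cells of days 6 to 16, 95.9% had no Krt8 UMI and 89 (0.509%) had 10 or more. Those 89 cells held 48.2% of all Krt8 UMIs, and they occurred in each of the 9 hashtags, with 1 to 30 cells. Their summed levels were 1291 CPM for Krt8, 1414 CPM for Krt18, 1026 CPM for Wfdc2 and 161 CPM for Cldn9. Cells with no Krt8 UMI had 509, 181 and 30.8 CPM of Krt18, Wfdc2 and Cldn9. Summed, the Krt8-rich cells held more of the other 3 members, at median depths of 11815 and 8867 UMIs. The sums pool unlike hashtags: 30 of the 89 cells came from the mixed-library hashtag of day 10, which also had the highest Cldn9 level, 72.9 CPM. Their Vim level was 10576 CPM against 12168 CPM, and Epcam and Cdh1 had 0 UMIs in them, which allows up to 2.64 CPM (3 counts).

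**Figure D2:**
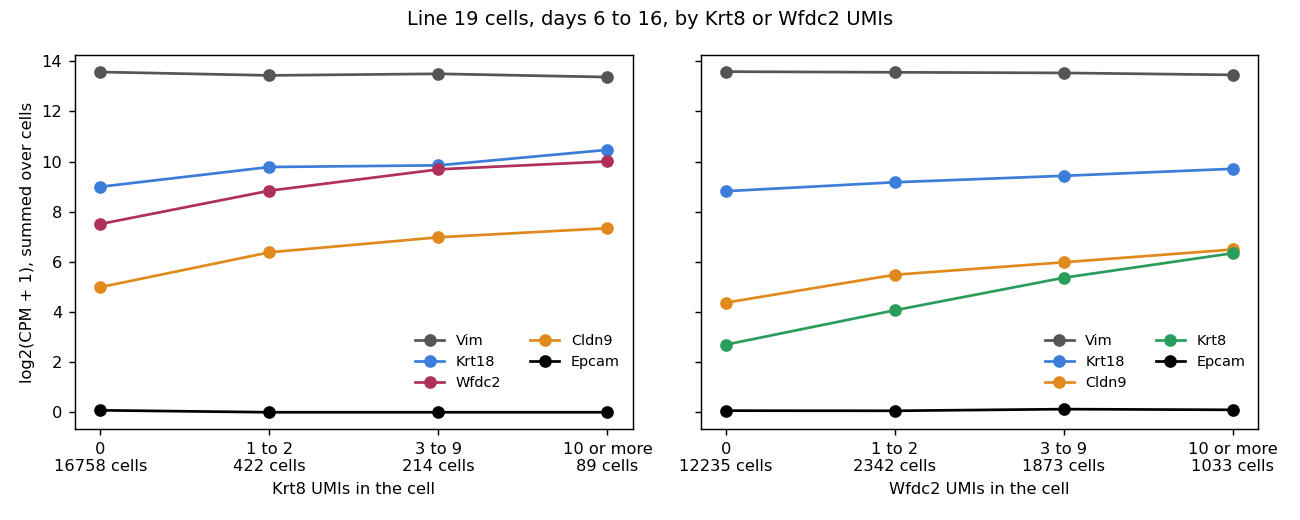
Summed levels, as log2(CPM + 1), in line 19 cells of days 6 to 16 grouped by the Krt8 UMIs (left) or Wfdc2 UMIs (right) in each cell, with cell numbers under the axis. The others of Krt18, Wfdc2, Cldn9 and Krt8 are higher in cells with more UMIs of the grouping gene, which is not drawn. Median depth is 8171 UMIs in the lowest and 12899 in the highest Wfdc2 class. Vim is at 10576 CPM or more in every class and Epcam near 0.

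Wfdc2, a secreted whey acidic protein domain protein of epithelia also known as HE4, was high in the same hashtags as Krt8. In line 19 it was at 5.26 and 7.60 CPM at day 0, then at 66.1, 122 and 138 CPM at day 6, at 242, 264 and 330.0 CPM at day 10 and at 151, 173 and 326 CPM at day 16. No hashtag outside line 19 exceeded 10.9 CPM, the value of a line 15 hashtag of day 16. All 9 later line 19 hashtags lay above that level, and both day 0 hashtags lay below it. Within those 9 the library means of the 2 genes differed in opposite directions. Wfdc2 averaged 160 ± 88.7 CPM in the mixed and 222 ± 96.3 CPM in the single-line library (SD, n = 3 and 6), and Krt8 27.4 ± 21.3 and 12.3 ± 4.53 CPM. Inside the mixed library they had the same order of days, with Wfdc2 at 66.1, 242 and 173 CPM on days 6, 10 and 16. Krt8 was at 7.50, 49.95 and 24.8 CPM there. Line 15 was at 0.402 and 0.483 CPM at day 0 and at 1.65 to 10.9 CPM later. Line 18 had 0 UMIs at day 0, where 3 counts would be 1.52 CPM, and 0.733 to 6.86 CPM later. Line 24 stayed between 0.0948 and 3.71 CPM at all days. In lines 15 and 19 every later hashtag was above every day 0 hashtag of its line, while most line 18 values lay under the limit that its day 0 count of 0 allows.

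Wfdc2 was present in a larger share of line 19 cells than Krt8. After thinning to 1000 UMIs, 10.3% of line 19 cells held a Wfdc2 UMI against 0.455% in line 15, and 0.152% and 0.0912% in lines 18 and 24 (28.2%, 2.02%, 0.710% and 0.310% unthinned). The T-cell-like cells of line 19 gave 1.99% (exact 95% binomial interval 1.32 to 2.88), below its line cells. Those of line 15 gave 0.317% (0.00804 to 1.76), an interval that includes the line 15 share. Per hashtag the thinned share in line 19 was 0.595% ± 0.841 (SD, n = 2) at day 0, and 6.92% ± 2.50, 15.2% ± 0.799 and 11.02% ± 3.77 (n = 3 each) at days 6, 10 and 16. Cells with 10 or more Wfdc2 UMIs were 5.91% of the later line 19 cells and held 63.1% of its Wfdc2 UMIs. Wfdc2 also led the genes of cluster 3, which was formed without the 9 members. This cluster took up 1.28% and 2.27% of line 19 cells at day 0 and between 21.5% and 48.9% later. It held 4.93% to 21.1% of line 15 cells and 1.75% to 15.9% of line 18 cells at days 6 to 16, and 4.18% to 10.5% of WT cells. Cells of this cluster had Wfdc2 at 260 CPM in line 19 but at 10.6 and 7.62 CPM in lines 15 and 18. Within line 19 the level was not particular to it: clusters 17, 2 and 4 had Wfdc2 at 256, 226 and 192 CPM. In line 24 cluster 3 held at most 1.12% of cells in any hashtag. Cluster 0 held 60.9% of line 24 cells of days 6 to 16 and 0.709% of those of line 19.

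Cldn9, a tight junction claudin, was highest in line 19 too, with a smaller gap. It was at 3.64 and 3.95 CPM at day 0 in line 19, at 11.1, 18.6 and 25.4 CPM at day 6, at 30.5, 40.2 and 72.9 CPM at day 10 and at 32.2, 35.1 and 46.3 CPM at day 16. The highest value outside line 19 was 19.7 CPM in a line 18 hashtag of day 10, and 7 of the 9 later line 19 hashtags exceeded it. Line 18 was at 2.03 CPM at day 0 and at 3.61, 8.11 and 19.7 CPM (lowest, median and highest, n = 9) later. Line 15 was at 0.483 and 0.966 CPM at day 0 and at 3.40, 5.32 and 8.87 CPM later. Line 24 was at 0 and 0.243 CPM at day 0 and at 0, 0.306 and 2.20 CPM later, so it was the lowest line. Its later values differed by library, at 1.835 ± 0.532 CPM (SD, n = 3, 34 UMIs) in the mixed and 0.159 ± 0.16 CPM (n = 5, 5 UMIs) in the single-line library. In lines 15, 18 and 19 each later hashtag exceeded each day 0 hashtag of its line. Within each of days 6, 10 and 16 all line 19 hashtags were above, and all line 24 hashtags below, all control hashtags, as for Krt18.

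Detection of the 4 members that were high in line 19 was compared within cells. Among line 19 cells of days 6 to 16 thinned to 1000 UMIs, Krt18 was detected in 48.3% ± 4.41 (SD, n = 9 hashtags) of cells with a Wfdc2 UMI and in 33.0% ± 5.42 of cells without, and it was higher with Wfdc2 in 9 of 9 hashtags. Krt8 was detected in 3.76% ± 2.28 and 0.774% ± 0.826 of cells with and without a Wfdc2 UMI, higher in 8 of 9. Cldn9 was detected in 5.63% ± 2.05 and 2.38% ± 1.68, higher in 9 of 9. On average each of these members was thus more frequent in cells with Wfdc2. For Cldn9, the share of Wfdc2-positive cells was 24.1% ± 9.02 with Cldn9 and 10.7% ± 4.13 without. Krt8 and Cldn9 were less regular: Krt8 was detected in 4.15% ± 4.51 of cells with Cldn9 and 0.9904% ± 0.932 of cells without, higher in 5 of 9 hashtags. Cells are not replicates here, and the hashtags of line 19 all come from a single line.

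**Figure D3:**
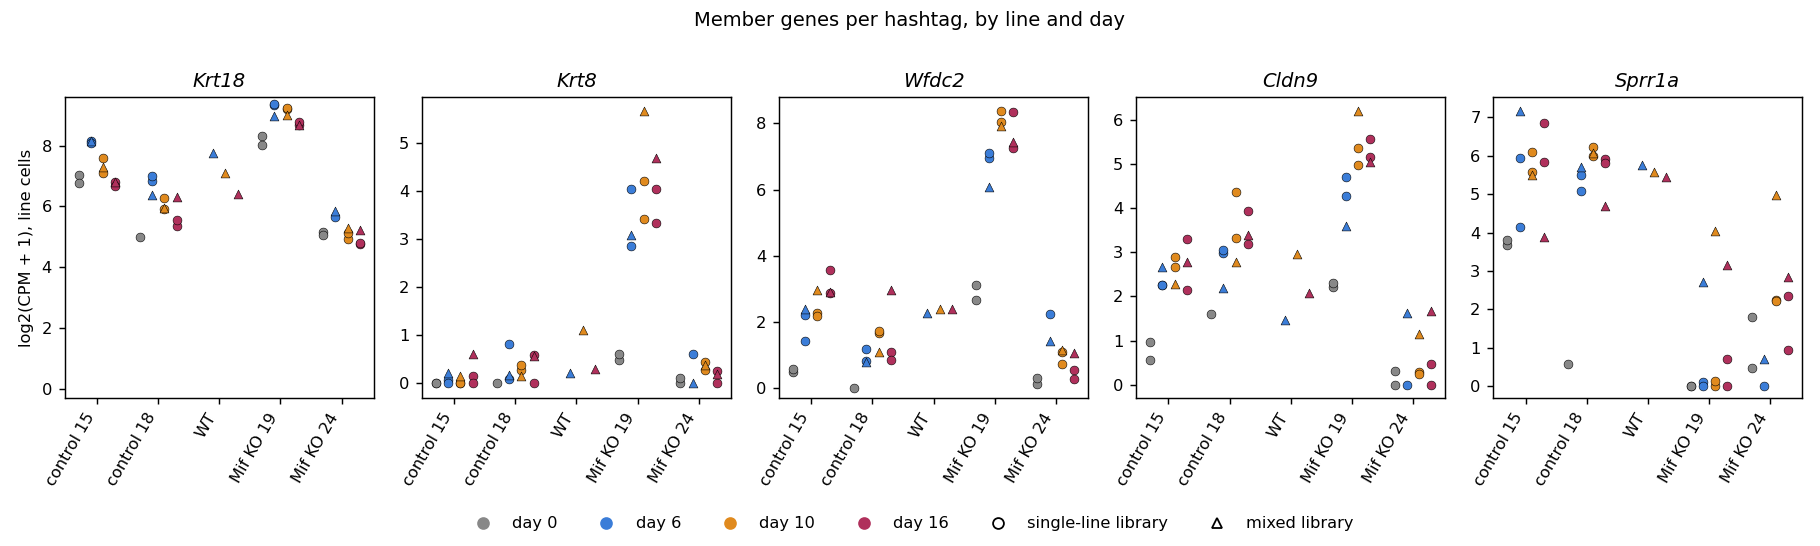
Krt18, Krt8, Wfdc2, Cldn9 and Sprr1a in line cells as log2(CPM + 1), with a point for each of 45 hashtags, by line, day (colour) and library kind (shape). After day 0 line 19 is highest on average for the first 4 genes. At days 6 to 16 Sprr1a averages 62.5, 52.4 and 47.3 CPM in lines 15 and 18 and WT and 3.30 and 6.23 CPM in lines 19 and 24. A line 19 hashtag at 15.4 CPM and a line 24 hashtag at 30.6 CPM lie inside the control range, which starts at 13.7 CPM.

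Sprr1a, a small proline-rich protein of the cornified envelope of stratified epithelia whose expression stress can induce, had another pattern. In line 15 it was at 11.8 and 13.0 CPM at day 0 and at 13.7, 55.8 and 142 CPM (lowest, median and highest, n = 9) later. In line 18 it was at 0.507 CPM (1 UMI) at day 0 and at 24.99, 55.5 and 73.4 CPM later (n = 9). WT hashtags were at 52.8, 46.4 and 42.6 CPM. The keratinocytes were at 67.1 CPM (exact 95% Poisson interval 44.9 to 96.3). In the library of line 19 alone it was at 0 CPM at day 0 in both hashtags and at 0 to 0.622 CPM later, and in that of line 24 alone at 0.379 and 2.51 CPM at day 0 and at 0 to 4.09 CPM later. At days 6 to 16 every KO hashtag of the single-line libraries thus lay below every control hashtag, while at day 0 line 18 lay below a hashtag of line 24. Over all days and libraries, 9 of 21 KO hashtags lay below every control hashtag. In the edgeR fit given below, 23.7% of all genes were called lower in KO lines, and how many separated in this way was not counted.

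In the mixed libraries the KO lines held more Sprr1a. Line 19 had 5.56, 15.4 and 7.87 CPM on days 6, 10 and 16, and line 24 had 0.626, 30.6 and 6.18 CPM. Line 15, loaded with line 19, had 142, 43.9 and 13.7 CPM on these days. WT, loaded with line 24, had 52.8, 46.4 and 42.6 CPM. The KO cells stayed below the cells they were mixed with on each day, by a margin that was small on day 16 for line 19. Mif was higher in the mixed libraries as well, as given above, and there it was also higher in the KO cells that held Sprr1a. In the mixed libraries 102 line 19 cells with a Sprr1a UMI had Mif at 842 CPM and the 7262 without had 235 CPM. Of line 24 cells there, 45 with a Sprr1a UMI had 961 CPM of Mif and 3181 without had 707 CPM. In the single-line libraries the 3 line 19 cells with Sprr1a had 0 Mif UMIs against 51.0 CPM without, and the 25 line 24 cells had 492 against 422 CPM. Cells with 10 or more Sprr1a UMIs held 73.4% and 73.8% of the Sprr1a UMIs of lines 19 and 24 in the mixed libraries. The part of hashtag assignment in these values was not tested.

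**Figure D4:**
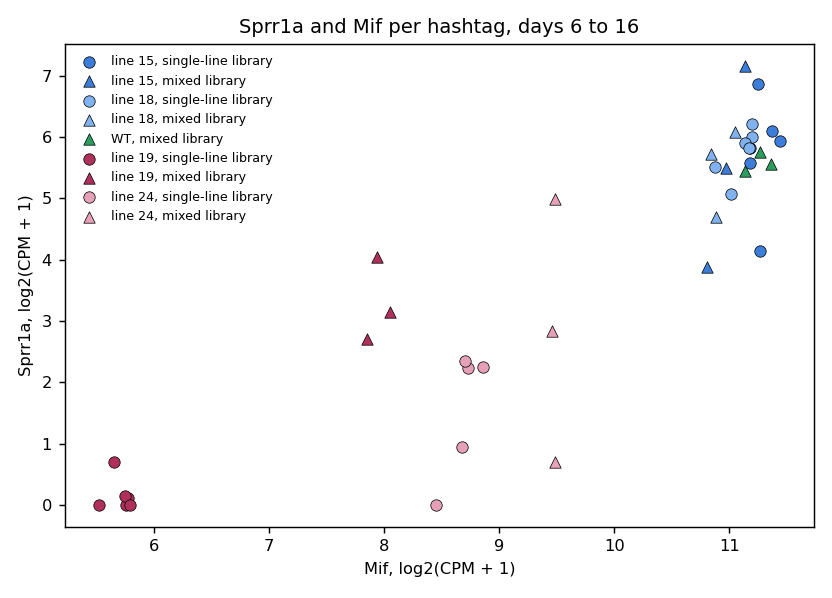
Sprr1a against Mif per hashtag of days 6 to 16, both as log2(CPM + 1), coloured by line, with circles for single-line and triangles for mixed libraries. Control and WT hashtags sit at the upper right. Line 19 hashtags of its own library sit near 0 for Sprr1a (at most 0.622 CPM), and its 3 mixed-library hashtags lie higher on both axes.

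Sprr1a was also concentrated in few cells of the control lines. At days 6 to 16, 156 of 9554 line 15 cells held 10 or more Sprr1a UMIs and together 83.2% of its UMIs, and 172 of 17370 line 18 cells held 78.6%. Such cells occurred in all 9 later hashtags of each line, with up to 202 and 270 UMIs in a cell. For comparison, cells with 10 or more Krt18 UMIs held 28.1% of Krt18 UMIs in line 15 and 9.17% in line 18. After thinning to 1000 UMIs, a Sprr1a UMI was found in 2.10% of line 15 and 1.74% of line 18 cells, against 0.156% and 0.310% in lines 19 and 24 (5.24%, 3.71%, 0.559% and 0.682% unthinned). T-cell-like cells of lines 19 and 24 gave 0.295% (exact 95% binomial interval 0.0804 to 0.753) and 0.251% (0.0815 to 0.584), intervals that include the shares of the KO line cells. The UMIs were not spread evenly over those cells: 11 line 19 cells held 72.0% of the Sprr1a UMIs of days 6 to 16 and 7 line 24 cells held 58.8%, with up to 97 and 73 UMIs in a cell. All 11 of the line 19 cells and all but 1 of the line 24 cells were in the mixed libraries. The thinned share in line 19 hashtags was likewise 0% to 0.0768% in the single-line library and 0.196% to 0.511% in the mixed library.

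The members were also read in fits over all genes, as a description. In the Mif KO against control fit of edgeR's quasi-likelihood test, with day as a term, 5 of 9 members passed the count filter. Their calls are not given, since the members were selected on these values. Of all 12589 genes tested, 49.7% were called at an adjusted p below 0.05, 26.0% higher and 23.7% lower, with a median log2 fold change of 0.01. The KO against control log2 fold changes were 5.48 (SE 0.675) for Krt8, 4.96 (0.704) for Wfdc2, 1.41 (0.464) for Cldn9, 1.26 (0.406) for Krt18 and -3.77 (0.497) for Sprr1a. For Krt18, Cldn9 and Wfdc2 these averages joined a line whose mean was above and a line whose mean was below those of both control lines. Without line 19, the values were -1.64 for Krt18, -3.02 for Cldn9 and -1.62 for Wfdc2, and Krt8 did not pass the count filter. Sprr1a kept its sign, between -4.17 and -3.08 without each line in turn, and was at -5.62 in the single-line libraries alone and at -2.26 in the mixed libraries alone. Hashtags of a line are not separate lines: with 1 sum per line, the same test called 0 genes, with 1189 at an unadjusted p below 0.05.

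For time, the single-line libraries were fitted with line as a term, days 6 to 16 against day 0. Here 5 of 9 members passed the filter, and their calls are again not given. Of all 12652 genes tested, 51.4% were called, 25.0% higher and 26.5% lower, with a median of -0.02. The log2 fold changes were 4.83 (SE 0.425) for Wfdc2, 4.54 (0.570) for Krt8, 2.94 (0.280) for Cldn9, 2.28 (0.396) for Sprr1a and 0.71 (0.126) for Krt18. Without line 19 the Wfdc2 value was 3.19, and Krt8 did not pass the filter. The Sprr1a value joins lines that differed. Line 15 was at 11.8 and 13.0 CPM at day 0 and 16.7 to 115 CPM later, and line 18 at 0.507 CPM (1 UMI) and then 32.7 to 73.4 CPM. Line 19 was at 0 CPM at day 0 and at most 0.622 CPM later. Line 24 overlapped, at 0.379 and 2.51 CPM at day 0 and 0 to 4.09 CPM later. The Krt18 value averages lines and days that differed: in the single-line library of line 24 it was at 32.1 and 34.9 CPM at day 0, at 49.3 CPM at day 6, at 29.1 and 33.6 CPM at day 10 and at 26.1 and 26.7 CPM at day 16. Day and any handling that went with it cannot be told apart.

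Other epithelial genes were mostly near 0, in lists chosen with earlier results of these data known. Calls in each list stand beside 49.7% of all genes called against control and 51.4% with time. Of 16 other keratins, 12 were below 1 CPM in each of the 4 lines, and 3 were tested: Krt13 and Krt16 were called higher and Krt80 lower in KO lines. Krt80, a keratin of epithelial differentiation, stood at -0.90 (SE 0.192, adjusted p = 0.000188 by edgeR) on the log2 scale, with means of 7.82, 5.74, 4.78 and 1.91 CPM in lines 15, 18, 19 and 24. Krt5 was absent by selection, and Krt14 averaged at most 0.453 CPM in any line. Krt16, a stress keratin, was called higher with time (log2 fold change 4.46, SE 0.679), as was Krt80 (0.45, SE 0.181). Of 15 epithelial regulators 12 were below 1 CPM in each line, among them Grhl2, Esrp1 and Ovol1. These averaged at most 0.0512, 0.00812 and 0.0187 CPM in any of the lines. Klf4 and Cebpa were called higher in KO lines and Klf5 was not called. Cebpa was high in line 24 alone among the 4 lines, at 1.80 CPM on average against 0.317, 0.406 and 0.323 CPM in lines 15, 18 and 19. Klf4, a zinc finger factor of barrier epithelia, was at 169, 211, 290 and 387 CPM in lines 15, 18, 19 and 24, and its log2 fold change was 0.89 (SE 0.0834, adjusted p = 3.91e-11). With time Klf4 (2.04, SE 0.119) and Klf5 (0.67, SE 0.187) were called higher.

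Of 25 junction genes in the list, 14 were below 1 CPM in each line, and 11 were tested against control with 3 called higher and 1 lower, at a median log2 fold change of 0.05. Tjp1, a scaffold of tight junctions, averaged 97.5 to 108 CPM over the 4 lines and was not called (0.05, SE 0.0595). Ctnnd1, the catenin p120, was called higher (0.38, SE 0.0710, adjusted p = 3.27e-05). Ocln and Jup were the other genes called higher. Jup, plakoglobin of desmosomes and adherens junctions, averaged 4.21 CPM in line 19 and at most 1.04 CPM in the other lines. With time, 6 of 11 were called higher and 1, F11r, lower. Of all genes, 49.7% were called against control and 51.4% with time. Pkp3 had a log2 change of 1.39 (SE 0.187), Pkp2 of 0.69 (SE 0.166) and F11r of -0.72 (SE 0.189).

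Of 15 epithelial surface and secreted genes, 9 were below 1 CPM in each line. Against control 7 were tested, with 4 called higher (Muc1, Lcn2, Sfn and Lamb3), 1 lower (Itga6) and a median of 0.80. Over all genes the called shares were 49.7% against control and 51.4% with time. Lcn2, a secreted iron-binding lipocalin, was higher by 1.83 (SE 0.474, adjusted p = 0.00151), and Itga6, a laminin receptor chain, was lower at -1.10 (SE 0.393, adjusted p = 0.0191). Lamb3, a laminin chain, was high in line 19 alone among the 4 lines, at 3.46 CPM against 0.357, 0.520 and 0.460 CPM in lines 15, 18 and 24. Lcn2 and Itga6 did not split the lines by group either: Lcn2 averaged 3.90, 0.434, 3.65 and 12.6 CPM and Itga6 27.1, 11.1, 3.17 and 19.2 CPM in lines 15, 18, 19 and 24. With time 5 of 8 were called higher and 1, Lamb3, lower, with Lcn2 (1.81, SE 0.499) among the higher. In the cornified envelope list, 9 of 12 genes were below 1 CPM in each line. Cdsn, a corneodesmosome protein, was called lower in KO lines (-0.66, SE 0.139, adjusted p = 0.000173) and S100a14 higher, with Cnfn not called, at a median of -0.27. With time Cnfn (2.24, SE 0.523) and S100a14 were called higher and Cdsn (-0.95, SE 0.203) lower. The near relatives of Sprr1a did not share its level: Sprr1b averaged at most 0.113 CPM and Sprr2b at most 0.151 CPM in any of the 4 lines.

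All 16 mesenchymal genes in the list passed the count filter, and 1 of them, Tagln, was below 1 CPM in each line. Against control 6 were called higher and 3 lower, at a median of 0.12. The shares called among all genes were 49.7% against control and 51.4% with time. Twist2 was lower at -1.32 (SE 0.0924, adjusted p = 3.31e-14), Acta2, smooth muscle actin, higher at 1.25 (SE 0.321, adjusted p = 0.00148), Fn1, fibronectin, higher at 0.78 (SE 0.153, adjusted p = 5.95e-05) and Vim lower at -0.65 (SE 0.124, adjusted p = 4.04e-05). Mean Vim was 14088, 12640, 10771 and 6032 CPM in lines 15, 18, 19 and 24. At days 6 to 16 in the mixed libraries it was 13268, 10480, 12457 and 7270 CPM, so line 19 lay between the control lines. Cdh2, N-cadherin, had 0.14 (SE 0.0864), Zeb1 -0.32 (SE 0.280) and Snai2 0.20 (SE 0.115), and none of the 3 was called. Zeb1, a repressor of epithelial genes, averaged 5.63 CPM in line 19 against 21.5, 23.2 and 30.8 CPM in lines 15, 18 and 24. With time 9 were called higher and 2 lower, at a median of 0.36: Vim was at 0.84 (SE 0.0966), S100a4 at 1.20 (SE 0.110), Zeb1 at 1.21 (SE 0.137), Snai2 at -1.67 (SE 0.0880) and Acta2 at -3.34 (SE 0.285).

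The genes most like each member were sought among 7996 genes with at least 10 CPM on average, by Pearson's r of log2(CPM + 1) over 45 hashtags. The hashtags share lines, libraries and depth, so r mostly compares lines, and it is given as a description. Krt8 and Wfdc2 were alike (r = 0.92), as were Krt18 and Wfdc2 (0.83) and Cldn9 and Wfdc2 (0.81), while Sprr1a and Wfdc2 were not (-0.36). The leading genes were Endod1, Syne2 and Ppp4r3a for Krt8 (r = 0.87, 0.85 and 0.84), Vcpkmt, Arf6 and Ptrhd1 for Krt18 (0.91, 0.90 and 0.89), Eps8l2, Syne3 and Pax9 for Cldn9 (0.93, 0.91 and 0.91) and Cdc42bpb, Esyt2 and Syne2 for Wfdc2 (0.89, 0.89 and 0.88). Of these 11 genes 9 lie on chromosome 12, which holds 3.66% of the genes at this level and none of the 9 members. Syne2 averaged 135 CPM in line 19 and 44.2, 52.2 and 41.3 CPM in lines 15, 18 and 24. For Sprr1a the leading genes were Tspan6 (0.85), Mif (0.84) and Col5a3 (0.84). Tspan6, a tetraspanin, averaged 26.4 and 32.4 CPM in lines 15 and 18 and 0.826 and 1.73 CPM in lines 19 and 24. For Krt7, Krt19, Epcam and Cdh1, which were near 0, no likeness is given.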

How the data were processed

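For each of 6 libraries the deposited matrix holds whole-number UMI counts. The submitters' processing notes name Cell Ranger 6.0.0 and mm10. The authors also deposited a sheet that gives each hashtag its line, day and letter. The members and gene lists were chosen with earlier results of these data known. Barcodes with under 300 genes or over 15% of counts from mitochondrial genes were dropped. HTODemux (Seurat 5.3.0) assigned hashtags, doublets between hashtags and unassigned cells were left out, and doublets within a hashtag remain. Of 47 hashtags 2 with under 0.1% of hashtag counts were left out. Clustering (scanpy 1.11.5, igraph 0.11.9) used 2000 variable genes without the members, Mif, Xist, mitochondrial and immune receptor genes, with 27 clusters as the outcome. Names came from marker lists, and the 11 unnamed clusters with little Ptprc stand for the lines.

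Counts were summed per hashtag and fitted with edgeR 4.0.16 (filterByExpr, TMM, glmQLFit, glmQLFTest, Benjamini-Hochberg adjustment, threshold 0.05). DESeq2 1.42.0 was an alternative, and the fits were tested on simulated data. Depth differed between lines, so shares of cells used cells thinned to 1000 UMIs. Text names the members, in each list up to 4 called genes with the largest change at a mean log2 CPM of at least 2, Krt5, Krt14, Vim, Cdh2, Zeb1, Snai2, Grhl2, Esrp1, Ovol1 and Tjp1, and the 3 genes most like each member. Krt13, Krt16, Cebpa, Ocln, Jup, F11r, Muc1, Sfn, Lamb3, S100a14, Cnfn, Tagln, Sprr1b and Sprr2b were named beyond this after their values were seen. A few genes that this rule names are not reported here. Hashtags of a line and day differed by more than counting noise in each of 37 pairs (chi-square per degree of freedom 1.35 to 39.7). Many pairs joined a single-line and a mixed library, among them the highest. Pairs within a library ran from 1.35 to 18. Promoters and gene positions are from RefSeq GRCm38.p6. Wfdc2 has 2 listed starts, of which the first was used.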

Additional observations from a re-analysis of the deposited data

Results flagged for a closer look

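In 5 of the 20 line and gene groups of days 6 to 16, 1 hashtag stood far from the others by Dixon's criterion. Its rate of about 1 in 20 by chance holds for draws from a single normal distribution. These groups pool days and libraries, so the count cannot be read against that rate. Krt8 was at 49.95 CPM in a day 10 hashtag of line 19, from the mixed library, where the next value was 24.8 CPM. It was at 0.537 CPM (6 UMIs) in a day 16 hashtag of line 15 (next 0.156 CPM), from the mixed library that also held line 19. Later line 15 cells had 8 Krt8 UMIs in that library and 2 in the single-line library, and the part of hashtag assignment was not tested. Wfdc2 was at 6.86 CPM in a day 16 hashtag of line 18 from the mixed library (next 2.27 CPM) and at 3.71 CPM (7 UMIs) in a day 6 hashtag of line 24 (next 1.67 CPM). Sprr1a was at 30.6 CPM in a day 10 hashtag of line 24 from the mixed library (next 6.18 CPM).

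The 2 Mif KO lines lay on opposite sides of the controls for Krt18 and Cldn9 on each of days 6, 10 and 16, which was not tested. How many of all genes split the lines in this way was not counted. Cldn9 was split so at day 0 already, at 3.64 and 3.95 CPM in line 19 and 0.483 to 2.03 CPM in control lines. Line 24 was then at 0 and 0.243 CPM, with 3 UMIs in line 24 and 4 in line 18. Krt18 in line 19 was at 4.10 times the control mean and in line 24 at 0.287 times. Cldn9 was at 4.76 times the control mean in line 19 and at 0.108 times in line 24, where it was higher in the mixed than in the single-line library. Among the WT hashtags, Krt8 reached 1.18 CPM (18 UMIs) on day 10, above the highest control hashtag at 0.768 CPM.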

How the results depend on the processing

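The Mif KO against control count of 6261 called genes became 0 with 1 sum per line (1189 at an unadjusted p below 0.05 in edgeR), 614 in the mixed libraries alone and 1906 with library as a term. Of 27 alternatives for the counts of called genes in both comparisons, the other 24 stayed within 1.5 times. Leaving out each line in turn gave log2 fold changes of -1.64 to 2.14 for Krt18, -3.02 to 2.22 for Cldn9 and -1.62 to 5.92 for Wfdc2, the lowest without line 19, where the sign reversed. Line 24, then the only KO line, had means below those of both control lines for each of these genes. The cause of the difference between the KO lines was not tested. Of 133 fold changes of members under alternatives, 126 kept their direction and moved by less than the residual SD over hashtags. Another 4 moved further with the same direction, and 3 reversed. In the Mif KO against control comparison that SD held the spread between lines of a group, so the limit was wide. List counts moved by over 1.5 times in 64 of 324 cases, and shares of cells with a UMI moved in 35 of 40 cases with thinning to 2000 UMIs or none. Epcam in keratinocytes was at 604 and 865 CPM under a looser and a stricter gate, and Sprr1a at 89.3 and 35.4 CPM. The alternatives on single-line libraries and without low-UMI clusters were chosen after seeing the data. No paired analysis was possible because the groups share no replicate number (the numbers are those of the lines); cells loaded in the same library were compared in the fit with library as a term. With 2 lines per group, the line and the Mif genotype cannot be told apart, and values near 0 rest on few UMIs.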

Other observations

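Genes of chromosome 12 stood apart in line 19. Of the 288 genes on it with at least 10 CPM on average, 98.6% were higher in line 19 than in the mean of the other 3 lines, with a median log2 ratio of 0.83. The next chromosome, 16, had a median of 0.14 with 76.2% higher. The chromosome 12 medians of lines 15, 18 and 24, each against a mean that includes line 19, were -0.32, -0.29 and -0.42 (log2). Chromosome 12 took 4.22% to 4.82% of the UMIs of the 11 line 19 hashtags, at day 0 and later, and 2.30% to 2.79% in the 34 hashtags of lines 15, 18 and 24 and WT, so the ranges did not overlap. Krt18, Krt8, Wfdc2 and Cldn9 lie on chromosomes 15, 2 and 17, whose medians in line 19 were -0.05, -0.09 and -0.07. Whether the levels of the members are linked to this was not tested.

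F11r, a junction adhesion molecule, was split between lines of a group: lines 15 and 19 averaged 23.7 and 28.8 CPM, lines 18 and 24 averaged 1.34 and 2.79 CPM.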
